A study of Homo sapiens with 3 samples.

Results

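NCI-H1299, a line of human lung carcinoma cells grown out of a lymph node metastasis, makes no p53 protein. The values described here are those of its mock culture alone, 1 array of the 3 in the study, which also profiled cells given miR-34a or ghR-34a. The mock cells were grown in RPMI medium with serum, and what they received in place of the transfected RNAs is not described in the labels. From 250 ng of their total RNA, biotin-labelled cRNA was hybridised to an array of 54675 probe sets. The genes were all those named by at least 1 probe set that carries a single gene in the platform annotation. These were 19775 genes, from 41091 of the probe sets, ranked by signal. Each gene took the signal of its highest probe set. There was 1 mock array and no replicate, so no spread between cultures can be given and nothing was tested.

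A signal is the linear brightness of a probe set after the authors' scaling. Probe sets differ in how well they bind their transcript, so a rank is a rank of signals, and signals of different genes do not measure their relative numbers of transcripts. Probe sets of the same gene also differed widely, and what made them differ was not tested. Among 6574 genes with at least 2 probe sets whose highest lay above background, the highest and lowest probe sets differed by a median of 3.57 on the log2 scale, with quartiles of 1.76 and 5.56. All probe sets were above background in only 33.6% of them. The text therefore asks mainly whether a gene was above background, and gives for key genes how many of their probe sets were. A signal at background can also come from a probe set that works poorly.

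As background to what follows, a cancer cell line keeps parts of the gene programme of the tissue it arose in and loses others. Lung epithelium is marked by surfactant, secretory, ciliary and basal genes under factors such as NKX2-1, and its neuroendocrine cells by secretory granule proteins. Carcinoma cells that have lost epithelial junctions often carry filaments and adhesion proteins of mesenchymal cells. Growing cells of any origin share high levels of ribosomal, glycolytic and cell cycle transcripts.

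The signals of the 19775 genes ran from 0.183 to 48351, with a median of 168. Their distribution on a log scale had a lower mode at signals of 39.8 to 50.1, an upper mode at 1000 to 1259 and a trough at 199.5 to 251. Genes restricted to other tissues gave the background. Of 109 such reference genes, among them those for crystallins, pancreatic hormones, muscle proteins and liver secretory proteins, 87 were measured, with a median signal of 25.5. Their 95th percentile, 196, was taken as the background limit and lay next to the trough. The keratin gene KRT10, at 2123, was 1 of the 5 reference genes above the limit, and all 3 of its probe sets were above. KRT10 had the highest signal of the 87. The 99th percentile of the reference genes, 626, serves below as a stricter limit. That value lies between KRT10 and the next reference gene, so it depends on KRT10. Above the background limit of 196 lay 9548 genes, 48.3% of all, and 10227 were at or below it. The gene lists below are of protein-coding genes, while all genes include non-coding ones. Of protein-coding genes alone 55.5% were above the limit, with a median of 313. Counts in the lists should be read beside both shares. The second measure was membership of the top 10% of genes, 1978 genes (10.0%) with signals of 3260 or more. The share above the limit rose with the number of probe sets a gene has, from 32.2% for 1 probe set to 77.4% for 5 or more, under the rule that takes the highest one.

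**Figure D1:**
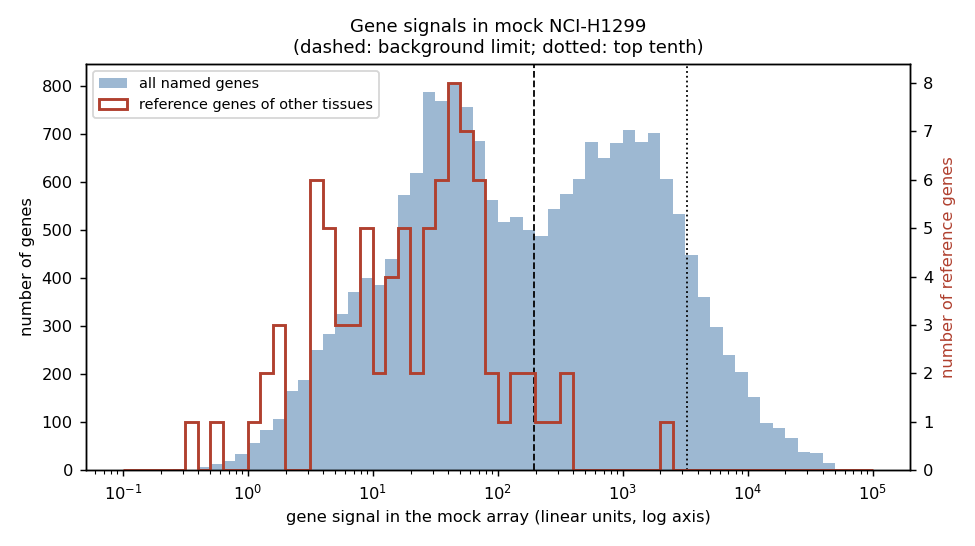
Number of genes by signal in the mock array (log axis), for all named genes (filled, left axis) and for the reference genes of other tissues (outline, right axis). The dashed line is the background limit of 196, which lies just below the trough between both modes, and the dotted line at 3260 marks the top 10% of genes.

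Controls on the same array bear on how far signals can be read. Bacterial and phage RNAs added in rising amounts before hybridisation gave 860 to 998 for bioB, 2371 to 2889 for bioC, 10227 to 13712 for bioD and 26754 to 36257 for cre. The signal rose in the order of the amounts. The 3 probe sets for the trpn control lay between 2.36 and 14.3. The ratio of 3′ to 5′ signal was 0.967 for the GAPDH control and 1.41 for the ACTB control.

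Genes of protein synthesis led the array. The highest signal was that of RPS19, a protein of the small ribosomal subunit, at 48351. RPL7 (47754), RPS16 (44496), RPS10 (44443), RPS23 (44097) and RPS12 (41808) were also among the 10 highest. Ribosomal genes were counted by symbol, as protein-coding genes starting with RPL or RPS and a digit, with RPLP, or named RPSA. This count also takes in genes of other function, such as the kinase RPS6KB1. Of the 71 genes so counted, 64 were above the limit, 55 were in the top 10% and 45 were among the first 100. The same 10 held EEF1A1 (43503), the factor that brings tRNA to the ribosome, with all 6 of its probe sets above the limit. They also held TUBA1B (43590), an alpha-tubulin, TMSB10 (45833), a small actin-binding protein, and COX2 (43643), the mitochondrially encoded subunit of cytochrome c oxidase.

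Outside the ribosome, the 20 highest genes also covered chaperones, cytoskeleton, respiration and glycolysis. The chaperones were HSP90AA1 (41776), the cyclophilin PPIA (39321) and HSPD1 of mitochondria (33745), where 3 of 5 HSPD1 probe sets were above the limit and their median was 265. ACTB was at 36149 and VIM, the intermediate filament of mesenchymal cells, at 34003. The mitochondrially encoded COX1 and ND4 were at 34990 and 34159, and the glycolytic enzymes were GAPDH (34711) and LDHB (32754). The others were TPT1 (40397), UBB (36702), which encodes ubiquitin, the splicing protein SNRPD2 (36694), NPM1 of the nucleolus (34704), NACA (33557), the poly(A)-binding protein PABPC1 (33157) and HUWE1. HUWE1, a ubiquitin ligase, was at 38897, from a probe set that can bind several transcripts. Of its 5 probe sets 3 were above the limit, but the median of these 5 was only 207. The 198 highest genes, 1% of all, held 20.1% of the summed signal.

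The labelled cell type is lung cancer. In lists of normal lung cell markers, the share above the limit ran from 0% for ciliated to 40% for alveolar type II cells. Of all genes 48.3% were above it. Of 10 measured markers of alveolar type II cells, which make surfactant, 4 were above the limit, near the share of all genes. They were the lipid transporter ABCA3 (437), LPCAT1 (372), LAMP3 (305) and SFTPB (203), with 0 in the top 10%. A limit at the 99th percentile left 0 above, against 33.6% of all genes. A limit at the median probe set left 8, against 60.4% of all genes. SFTPB encodes surfactant protein B, and 1 of its 4 probe sets was above the limit. Surfactant proteins C and D were at background, with SFTPC at 98.9 and SFTPD at 20.9, as was the protease NAPSA (78.4). Among 11 club and goblet cell markers only FCGBP (404) was above, and the secretory protein SCGB1A1 was at 19.5. Of 9 basal and squamous markers only KRT15 (236) was, and KRT5 was at 9.72. None of 10 ciliated cell markers was above the limit, and the highest was the dynein heavy chain DNAH5 at 118. In the alveolar type I list 2 of 8 were above, EMP2 (544) and CAV1. CAV1 encodes caveolin, found in many cell types, and was at 12568, while AGER (74.9) and AQP5 (5.83), more typical of these cells, were at background.

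Transcription factors of lung and foregut were above the limit in 43.5% of cases, against 48.3% of all genes. NKX2-1, which specifies lung epithelium and marks adenocarcinoma, was at 36.5, and both its probe sets were at background. FOXA1 was at 87.8 and FOXA2 at 13.3. Above the limit were 10 of 23 factors, led by YAP1 (6186), the coactivator of the Hippo pathway, with all 3 probe sets above. SOX9 (4655), a factor of distal lung progenitors, and GATA6 (1923) followed, then ID2 (1755), TEAD1 (1289) and TEAD4 (1117), the latter both DNA-binding partners of YAP1. POU2F3, a factor of tuft cells, was at 18.4.

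Epithelial genes were mostly at background, and the simple keratins differed. KRT18 was at 17498 and its partner KRT8 at 2524, each from 1 probe set of a kind (_x_at) that can bind several transcripts. KRT7 was at 217, with 1 of 4 probe sets above the limit, and KRT19 was at 6.05. E-cadherin, the adhesion protein of epithelial junctions, is encoded by CDH1, whose probe sets were at 15.4 and 1.73. EPCAM was at 21.2, and the claudins CLDN4 and CLDN7 were at 12.6 and 19.9. Also above the limit were TJP1 (6078) and OCLN (2400) of tight junctions, DSP (629) of desmosomes and MUC1 (261). In all the 21 epithelial genes had a median of 61.8, and 7 were above it, 33.3%, against 48.3% of all genes. Without probe sets that can bind several transcripts 4 of 14 were above the limit. The epithelial splicing factor ESRP1 (61.8) and GRHL2 (32.1), a factor that maintains epithelial identity, were at background.

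The 25 genes of the mesenchymal state had a median of 517, against 168 over all genes and 313 over protein-coding genes. Above the limit were 16 of the 25. With the lowest probe set of each gene 7 of 25 were, against 33.0% of all genes, so the list's share was then below that of all genes. VIM led with 34003, and its second probe set was at 903. AXL, a receptor linked to this state, had 20615 and 1946 in its 2 probe sets. TPM1 (13243), an actin-binding tropomyosin, TGFBI (3988), a matrix protein induced by TGF-beta, CALD1 (1902) and ZEB1 (1661) followed. ZEB1 is a repressor of CDH1, and 3 of its 4 probe sets were above. N-cadherin, encoded by CDH2, was at 994 and 322, and FN1, the gene of fibronectin, was at 748 with 4 of 7 probe sets above. Not all of this list was present. SNAI1 (3.63) and SNAI2 (43.4), other repressors of CDH1, and the fibrillar collagens COL1A2 (38.3) and COL3A1 (24.8) were at background.

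**Figure D2:**
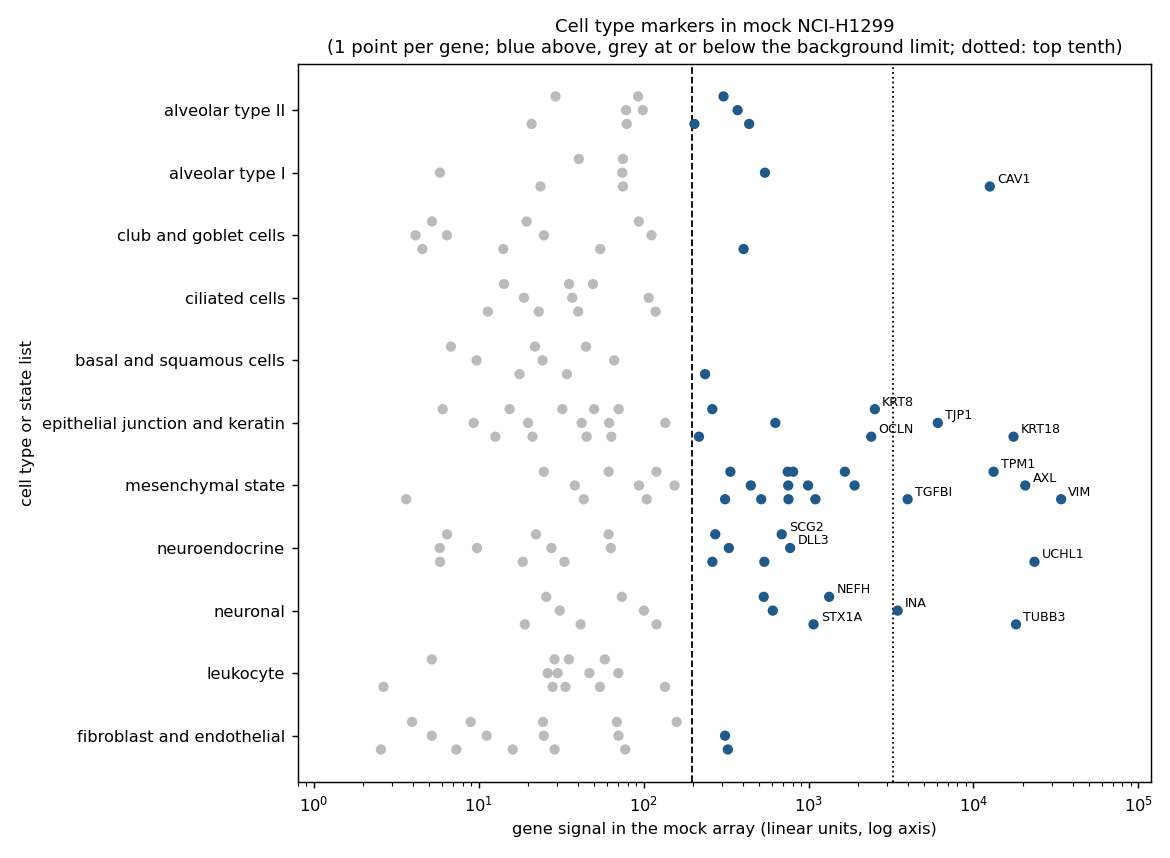
Signal of each measured marker gene in the mock array (log axis), by cell type or state list, with blue points above and grey points at or below the background limit of 196 (dashed) and the top 10% of genes from 3260 (dotted). Ciliated and leukocyte markers all lie at background, and VIM (34003), UCHL1 (23424), AXL and TUBB3 (18115) stand far to the right.

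Neuroendocrine genes were above the limit in 41.2% of cases, against 48.3% of all genes. UCHL1, a deubiquitinase abundant in neurons and neuroendocrine cells, was at 23424 and 665 in its 2 probe sets. The Notch ligand DLL3 (773), the granin SCG2 (688), the enolase ENO2 (539.7), CHGB (329), SYT1 (272) and ISL1 (261) were also above the limit, 7 of 17 in all. For DLL3 this held for 1 of 4 probe sets. The granule protein CHGA (33.1), the synaptic vesicle protein SYP (61.3), NCAM1 (63.3) and INSM1 (9.77), a factor that marks this lineage, were at background. Only 3 of the 17, 17.6%, were above a limit at the 99th percentile of the reference genes, against 33.6% of all genes. Of 13 neuronal genes 6 were above the limit of 196, 46.2%, near the share of all genes and below the 55.5% of protein-coding genes. TUBB3, a beta-tubulin of neurons and of many carcinoma lines, was at 18115, from a probe set that can bind several transcripts, and at 13982. The filament genes INA and NEFH were at 3468 and 1334, STX1A was at 1072, SNAP25 at 607 and MAP2 at 535. DCX (19.0), ELAVL3 (31.0) and ELAVL4 (25.7) were at background. Without probe sets of that kind 2 of 8 neuronal genes were above the limit, and 0 were in the top 10%.

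Markers of other cells were low. In a bulk culture, few cells with much of an RNA and many cells with little cannot be told apart. All 13 measured leukocyte markers were at background, from 2.65 to 135, with PTPRC at 28.8. Of 16 fibroblast and endothelial markers, ACTA2 (324) and COL1A1 (312) were above the limit, each in only 1 probe set, and PECAM1 was at 159. The liver gene ALB, a reference gene, was at 19.8.

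Promoter sequences of the RefSeq table (build GRCh38.p14) were set beside the signals, because genes of lineage and of general function are known to differ in promoter type. The windows of 250 bases before the start are shown here for 3 genes of this section, all on the plus strand, with CpG dinucleotides in capitals. UCHL1 (chr4:41256678-41256927) has 20 CpG in this window, VIM (chr10:17227991-17228240) has 8 and ALB (chr4:73404037-73404286) has 3. KRT8, at a signal of 2524 and not printed, has only 1, fewer than ALB at background.
UCHL1: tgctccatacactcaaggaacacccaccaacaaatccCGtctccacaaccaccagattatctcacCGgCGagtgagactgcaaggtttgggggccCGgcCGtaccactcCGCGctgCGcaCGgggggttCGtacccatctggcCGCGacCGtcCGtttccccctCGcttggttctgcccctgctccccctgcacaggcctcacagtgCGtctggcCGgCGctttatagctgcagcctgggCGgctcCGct
VIM: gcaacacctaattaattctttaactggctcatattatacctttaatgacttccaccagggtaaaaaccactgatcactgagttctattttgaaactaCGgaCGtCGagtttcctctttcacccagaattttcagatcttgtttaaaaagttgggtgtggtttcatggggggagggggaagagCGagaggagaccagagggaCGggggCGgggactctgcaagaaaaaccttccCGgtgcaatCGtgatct
ALB: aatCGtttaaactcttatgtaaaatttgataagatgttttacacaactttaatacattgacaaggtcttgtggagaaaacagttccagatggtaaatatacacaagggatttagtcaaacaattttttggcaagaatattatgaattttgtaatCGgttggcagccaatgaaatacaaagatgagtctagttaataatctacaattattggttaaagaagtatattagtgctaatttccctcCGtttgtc

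Over all protein-coding genes with a single listed start, 9727 of them, windows of 300 bases (250 before to 50 after the start) held more CpG where the gene was above background. The median was 12 CpG, with quartiles of 4 and 28, for 4221 genes at or below the limit. It was 28 (quartiles 21 and 35) for 4302 genes above it but outside the top 10%, and 27 (quartiles 22 and 35) for 1204 genes in the top 10%. Windows with 10 CpG or fewer made up 46.9% of the first class, 5.07% of the second and 2.57% of the third. The TATA motif, searched on the coding strand as TATAAA or TATATA from 50 to 5 bases before the start, was found in 5.33% of all windows. Its shares were 9.71%, 1.56% and 3.41% in the same order, so it was rarest between background and the top. With genes in 10 classes of equal size by signal, it fell from 13.5% in the lowest to 1.03% in the class of signals from 659 to 1173 and was 4.01% in the highest. These are shares of windows, and no factor was measured.

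**Figure D3:**
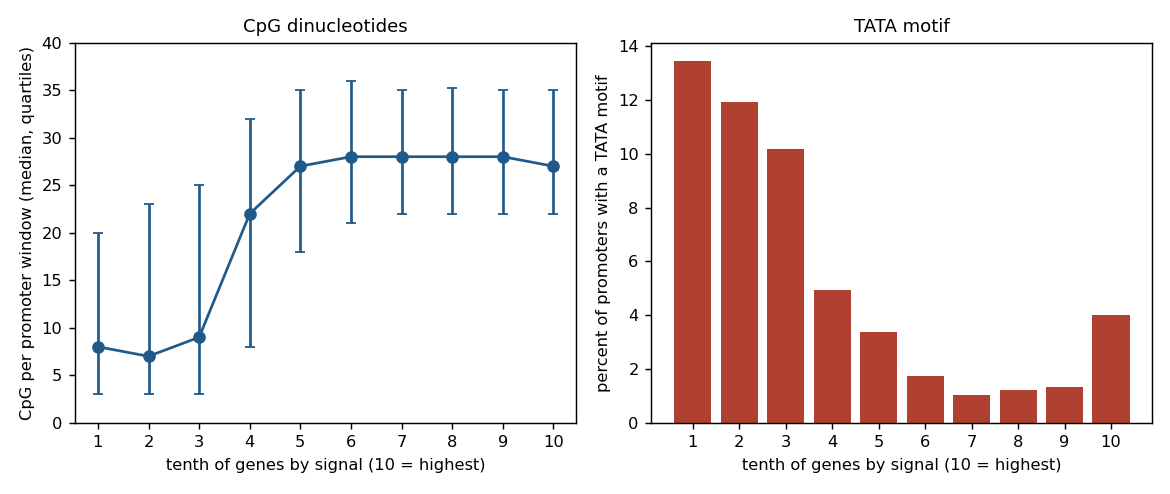
Promoter windows of 9727 protein-coding genes in 10 classes of equal size by signal: CpG per window (left, points are medians and bars quartiles) and percent of windows with a TATA motif (right, bars from 0). CpG are at medians of 7 to 9 in the lowest 3 classes and 27 to 28 from class 5 up, and the TATA share is lowest at 1.03% in class 7.

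HOX genes, which give cells a position along the body axis and lie in clusters in the order of their paralogue numbers, differed between clusters. In cluster B, 8 of 10 genes were above the limit. HOXB2 was at 6427, HOXB7 at 4609, HOXB3 at 2724, HOXB4 at 1749, HOXB6 at 410.4 and HOXB5 at 311, while HOXB1 (14.6) and HOXB13 (94.1), at its ends, were at background. In cluster C, 5 of 9 were above, with HOXC6 at 7349 and HOXC9, HOXC10, HOXC4 and HOXC8 between 239.6 and 341. HOXC5, at 193, lay just below the limit, and HOXC11, HOXC12 and HOXC13 ran from 21.5 to 99.6. In cluster D only HOXD8 (323) of 8 was above. Of cluster A, HOXA2 (12.5) was the single gene analysed here. With the limit at the 99th percentile of the reference genes, cluster B had 4 genes above it and cluster C had 1, HOXC6. Each of the 9 HOXC genes has a single probe set. Without probe sets that can bind several transcripts, 4 of 8 genes of cluster B and 5 of 7 of cluster C were above. The order of these clusters by share was then reversed. HOXC6, whose probe set is of that kind, was then not measured.

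**Figure D4:**
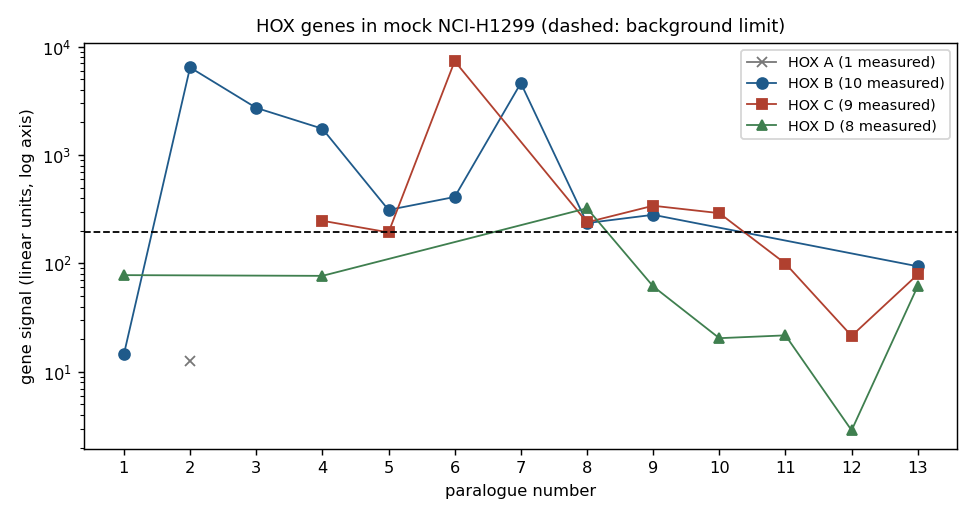
Signal (log axis) of each measured HOX gene by paralogue number, with 1 line per cluster and the background limit of 196 dashed. Cluster B genes 2 to 9 and HOXC6 (7349) lie above the limit, and all measured genes with paralogue numbers of 11 or more lie below it.

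Tumour suppressor genes were mostly above the limit, 27 of 31 analysed, with a median of 1070. With the lowest probe set of each gene 10 of 31 were, and 33.0% of all genes were above the limit under that rule. CDKN2A, which encodes inhibitors of CDK4 and of MDM2, led the list with 3845 and 1278 in 2 of 3 probe sets and 3.56 in the other. Its neighbours on chromosome 9, CDKN2B and MTAP, were at 599 and 1160. ARID1A (3483), CDKN1B (3116), LATS1 (2812), FAT1 (2722), KEAP1 (2043) and RB1 (2008) followed. Of the 2 RB1 probe sets the other was at 108, below the limit, and for LATS1 1 of 4 was above. The chromatin remodeller SMARCA4 was at 549, with 4 of 9 probe sets above, and STK11, the kinase that activates AMPK, at 491. The highest SMARCA4 probe set can bind several transcripts, and without such probe sets SMARCA4 was not above the limit. FHIT (23.8), NF1 (1.61), CDKN1C (65.7) and CDKN2D (168) were at background. NF1 had 1 probe set.

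In the RAS, RAF and MAPK list 24 of 26 genes analysed were above the limit and 8 were in the top 10%. The adaptor SHC1 (13928), the phosphatase PTPN11 (10195) and the kinases MAP2K1 (3478) and MAP2K2 (3445) carry the signal. Genes that ERK signalling is known to induce ranged widely. PHLDA1 was at 17136, with all 6 of its probe sets above. FOSL1, a subunit of AP-1, was at 6509, SPRY2 at 3729, ETV5 at 3622 and the ERK phosphatase DUSP6 at 3084, with all 3 of its probe sets above. EGR1 (846) and ETV4 (277) were above the limit outside the top 10%, and DUSP4 (25.0) was at background. HRAS was at 1181. In the PI3K and mTOR list 16 of 17 were above, led by RHEB (17774), the GTPase that activates mTOR, EIF4EBP1 (3520), PIK3CB (3468), SGK1 (3112), RPS6KB1 (2728) and AKT1 (2689). With the lowest probe set of each gene 7 of 17 were.

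Of 42 other oncogenes, 32 were above the limit and 16 were in the top 10%. HMGA2, a fetal chromatin protein, had the highest signal, 24755, but only 2 of its 9 probe sets were above and their median was 108. HMGA1 was at 11684, MYC at 9512 from 1 probe set, CDK4 at 9385, LIN28B at 9318 and TPD52 at 8834, with 5 of 5 probe sets above for TPD52. LIN28B blocks maturation of let-7 microRNAs, which in turn target HMGA2. The IGF2BP proteins bind mRNA in fetal tissue and tumours, and IGF2BP2 (4280), IGF2BP3 (4222) and IGF2BP1 (874) were all above. The paralogues LIN28A (27.9), MYCN (62.5) and MYCL (38.1) were at background. TERT, the catalytic subunit of telomerase, was at 88.0, and BCL2 at 94.1. CCND2 (206) and MYB (194) lay just either side of the limit.

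Few receptor tyrosine kinases were above background, 16 of 55, which is 29.1%, against 48.3% of all genes. AXL had the highest signal (20615), followed by RYK (4346), a Wnt receptor, MET (3269), the receptor for hepatocyte growth factor, EPHA2 (2654), MERTK (1611) and EPHB4 (1138). EGFR was at 1006, with 3 of 9 probe sets above, FGFR1 at 989, with 6 of 7 above, IGF1R at 672 and ERBB2 at 368, with 1 of 3 above. STYK1 (195.8) was the last above the limit and FGFR4 (172) the first below. ERBB3 was at 136. All 5 measured class III receptors, KIT (10.3), FLT3 (9.02), CSF1R (58.2), PDGFRA (28.9) and PDGFRB (5.19), were at background. With the limit at the 99th percentile of the reference genes 10 of 55 remained, and with the lowest probe set of each gene 8 did.

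Ligands were matched with their receptors to see which pairs one culture holds. The pairs were written from general knowledge after the signals were known, so their counts describe this array only. Of 31 pairs, both partners were above the limit in 12, the receptor alone in 4, the ligand alone in 10 and neither in 5. Both partners were above for TGFA (1117) and HBEGF (967) with EGFR. The same held for GAS6 (614) with each of AXL, MERTK and TYRO3 (316), and for FGF2 (548) and FGF5 (675) with FGFR1. The ephrins EFNA5 (645) and EFNB2 (691) were above with EPHA2 and EPHB4. MET was above while HGF, its ligand, was at 38.4, and IGF1R while IGF1 was at 30.1. The opposite held for PDGFC (3330), the highest ligand, VEGFA (982), PGF (883), ANGPT1 (696), KITLG (347) and BDNF (750.0), whose listed receptors were at background. In all 19 of 52 ligands were above, 36.5%, against 48.3% of all genes. A protein in the medium's serum would not be seen here.

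Among 46 receptors for cytokines, TGF-beta family ligands and death ligands, 33 were above the limit. With the limit at the 99th percentile 21 were, and with the lowest probe set of each gene 19. IL6ST, the shared subunit of interleukin 6 type receptors, was at 8793, while IL6R itself was at 30.0. IFNGR2 (6951), the TNF receptor TNFRSF1A (4026), TNFRSF12A (3351), TGFBR1 (2884) and IFNGR1 (2834) followed. The TRAIL receptors TNFRSF10B and TNFRSF10A were at 2239 and 1096, and FAS was at 669.8. Of receptors known from blood cells, IL2RG (8.98) and CSF2RB (7.65) were at background, while EPOR was at 583 with 3 of 5 probe sets above. Of 25 integrin subunits, 10 were above, 40%, against 48.3% of all genes. ITGB1, the beta subunit shared by many integrins, was at 22145, but 3 of its 7 probe sets were above the limit and their median was 79.3. ITGAV was at 5775, ITGA6 at 5123, ITGAE at 3992, ITGB5 at 2910 and ITGA4 at 1508. Subunits known from leukocytes differed. ITGB2 (7.59), ITGAL (39.1) and ITGAX (19.3) were at background, while ITGAE and ITGA4 were above the limit, ITGA4 in 4 of 4 probe sets. ITGB4 (114), the partner of ITGA6 in hemidesmosomes, was at background.

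Of 39 nuclear receptors analysed, 0 were in the top 10% and 13 were above the limit, 33.3%, against 48.3% of all genes. The count ran from 7, with the limit at the 99th percentile of the reference genes, to 24, with the limit at the median probe set. The glucocorticoid receptor gene NR3C1 was at 2666, with all 5 probe sets above, followed by NR2C2 (1887), NR2C1 (1340), NR2F6 (1251), VDR (930.5), the vitamin D receptor, and RXRB (789.8). Both estrogen receptors, ESR1 (54.3) and ESR2 (21.6), and the progesterone receptor PGR (4.92) were at background. All 9 ESR1 probe sets were. PPARA (196.1) and RORB (184) lay next to the limit.

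The glycolytic genes with the highest signals were those of the widely expressed isoenzymes. GAPDH (34711), LDHB (32754), ENO1 (28672), PGK1 (22251), LDHA (21824) and TPI1 (20560) were the highest of 28 genes, of which 17 were above the limit and 10 in the top 10%. ALDOA (16537), PGAM1 (16478) and GPI (9284) came next. Among isoenzymes known mainly from other tissues, the neuronal enolase ENO2 was above the limit at 539.7. The phosphofructokinases PFKP (4015), PFKM (2996) and PFKL (698), named for platelet, muscle and liver, were above it too. Others were at background, namely ALDOC (69.9), ENO3 (165) and PGAM2 (9.58) of brain and muscle, PKLR (5.60) of liver and red cells, and GAPDHS (36.6), PGK2 (56.5) and LDHC (100.2) of sperm. PKM was at 2415, and the hexokinases HK1 and HK2 were at 1319 and 1430 while HK3 was at 5.92. Among 16 sugar and lactate carriers only SLC2A13 (1769), SLC2A3 (1510), SLC2A1 (541) and SLC2A11 (242) were above. The only genes of the SLC16 family, which holds the lactate carriers, among the 16 were SLC16A7 (36.3) and SLC16A4 (7.20). Other members of that family, SLC16A1 and SLC16A3 among them, are not covered here. SLC2A3, the high-affinity glucose transporter GLUT3, had all 3 probe sets above, SLC2A1 (GLUT1) 1 of 2 and SLC2A13 2 of 5. SLC2A2 and SLC2A4, of liver and muscle, were at 2.04 and 18.4. Without probe sets that can bind several transcripts, 8 of 16 glycolytic genes were above the limit.

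Biosynthetic pathways were broadly above background. Of 20 genes of the pentose phosphate, serine and one-carbon pathways, 16 were, and 11 were in the top 10%. TYMS, which makes thymidylate, was at 21221, the mitochondrial folate enzyme MTHFD2 at 11828, PSAT1 of serine synthesis at 10448 and MTHFD1 at 9007, then MAT2A (7021) and TALDO1 (6309). The cytosolic SHMT1 was at 80.7 while the mitochondrial SHMT2 was at 3448. In amino acid metabolism 22 of 27 were above, led by the transporter SLC38A2 (19233), ODC1 (17953) of polyamine synthesis, SLC38A1 (10967), ASNS (5908), GOT2 (5327) and GLUD1 (5124). ASS1, which the cell needs to make arginine from citrulline, was at background (85.7), while ASL, the next enzyme, was at 1403.

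In the tricarboxylic acid cycle and its entry points 26 of 30 were above, with MDH2 (19492), MDH1 (8919), SDHD (7761), CS (7212), PDHA1 (5540) and SUCLG1 (5188) highest. IDH2 (173), PDK4 (85.2), PC (78.3) and PCK1 (2.89) were the 4 at background, and IDH1 was at 3142. Of 22 genes of lipid and sterol synthesis 19 were above, led by the desaturase SCD (14832), ELOVL5 (14008), ACLY (7564), SQLE (6513), FDPS (5965) and IDI1 (4450). ELOVL5 had 2 of 4 probe sets above.

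Antioxidant genes were above background in 18 of 27 cases. The highest were PRDX1 (28415), SOD1 (20336), TXN (19983), TXNRD1 (14200), NQO1 (13014) and GPX4 (11482), enzymes that remove peroxides, superoxide and quinones. NQO1, a target of the factor NRF2, had 3 of 3 probe sets above. TXN, TXNRD1 and PRDX1 are also regarded as NRF2 targets, as are GCLM (3375), SRXN1 (2560), GCLC (1765) and HMOX1 (573), all above the limit. Further targets lay near it or at background. AKR1C1 was at 266 with 1 of 5 probe sets above, AKR1C3 was at 2.0, AKR1B10 at 66.2, ALDH3A1 at 4.42 and GPX2 at 48.1. ALDH1A1 was at 22.7. Drug-metabolising genes were above in 12 of 30 cases, 40%, against 48.3% of all genes. GSTP1 (4284), TPMT (1670), ABCC4 (1516), GSTM3 (1385), CYP1B1 (1208) and ABCC1 (1014) were highest. The exporters ABCB1 and ABCG2 were at 322 and 149.

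Metallothioneins, small cysteine-rich proteins that bind zinc and copper and are induced by metals, stood among the higher genes. MT2A was at 20492, MT1X at 11749, MT1H at 9510, MT1G at 5093, MT1F at 4943 and MT1E at 1212. MT3 (126), MT4 (28.5) and MT1M (6.79) were at background. The family is of near-identical copies, and the highest probe set of all 6 genes above the limit was of a kind (_x_at) that can bind several transcripts, so their signals cannot be assigned to single genes. Without such probe sets 0 of the 4 genes left were above. The metal response element, a core searched as TGCACNC or TGCGCNC on both strands, is printed in capitals in the 250 bases before the start of 4 of these genes on chromosome 16, all on the plus strand. Matches may overlap. MT2A (chr16:56608334-56608583) has 7 matches, MT1H (chr16:56669564-56669813) has 8, MT1X (chr16:56682220-56682469) has 4 and MT4 (chr16:56564823-56565072) has 3. At least 3 matches occurred in 2.09% of 9727 such windows and at least 1 in 31.4%. A match is a stretch of letters and not a site shown to be used.
MT2A: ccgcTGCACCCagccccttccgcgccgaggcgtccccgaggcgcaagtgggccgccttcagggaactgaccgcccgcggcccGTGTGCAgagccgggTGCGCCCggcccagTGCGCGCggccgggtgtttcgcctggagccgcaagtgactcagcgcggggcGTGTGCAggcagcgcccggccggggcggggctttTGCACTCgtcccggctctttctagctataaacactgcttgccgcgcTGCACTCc
MT1H: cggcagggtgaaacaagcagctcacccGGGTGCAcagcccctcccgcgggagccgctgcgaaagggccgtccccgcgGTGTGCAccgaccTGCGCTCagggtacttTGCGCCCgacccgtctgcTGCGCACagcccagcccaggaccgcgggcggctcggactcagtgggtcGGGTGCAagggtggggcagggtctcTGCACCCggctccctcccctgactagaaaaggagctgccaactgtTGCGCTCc
MT1X: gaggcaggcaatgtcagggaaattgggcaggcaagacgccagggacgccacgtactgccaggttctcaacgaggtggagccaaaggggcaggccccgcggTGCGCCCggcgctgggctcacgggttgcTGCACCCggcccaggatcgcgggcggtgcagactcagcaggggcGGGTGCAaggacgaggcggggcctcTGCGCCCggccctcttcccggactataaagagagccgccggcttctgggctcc
MT4: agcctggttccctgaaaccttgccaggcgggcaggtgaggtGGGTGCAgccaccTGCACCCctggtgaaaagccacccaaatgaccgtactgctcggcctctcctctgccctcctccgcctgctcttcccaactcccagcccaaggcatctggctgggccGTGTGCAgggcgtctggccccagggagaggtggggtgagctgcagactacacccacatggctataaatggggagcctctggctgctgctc

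Measured genes of class I antigen presentation were above the limit, apart from the regulator NLRC5 (6.32), and those of class II were at background. These are RNA signals, and presentation itself was not measured. B2M, the shared light chain, was at 19787, HLA-C at 5846, HLA-B at 5028 and HLA-E at 2298. The transporter subunits TAP2 and TAP1 were at 1245 and 793. Probe sets of the HLA class I genes can bind one another's transcripts. All 8 measured class II genes and the class II chaperone CD74 (57.3) and regulator CIITA (129) were at background, with HLA-DRA at 4.76. CD47 (7362), a signal that inhibits phagocytes, MICB (4732) and MICA (2350), ligands of the receptor NKG2D, were above the limit, and CD274, the gene of PD-L1, was at 50.9. In all 15 of 27 were above, 55.6%, against 48.3% of all genes. Without probe sets that can bind several transcripts 8 of 20 were, 40%, against 46.3% of all genes.

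Genes of innate sensing and interferon response were above the limit in 44.4% of cases, against 48.3% of all genes. ISG15 (3000), EIF2AK2 (2224), MAVS (741), CGAS (695), IRF3 (637) and RIGI (593) were the highest of 27, of which 12 were above and 0 in the top 10%. The RNA sensors that signal through MAVS, RIGI and IFIH1 (574), were above the limit, while the related DHX58 was at 4.45. Only 5 of 27 were above a limit at the 99th percentile. None of the 9 Toll-like receptors measured was, the highest being TLR6 at 109, and TLR3 was at 59.8. IFNB1 (1.52) and IFNL1 (34.7), interferon genes, were at background, as were MX1 (21.6) and OAS1 (10.1). Only 4 of 33 cytokine and chemokine genes were above: TGFB1 (1104), TGFB2 (343), LIF (321) and CXCL2 (273). IL6 (34.2), CXCL8 (20.5) and IL1B (90.1) were at background.

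Cancer-testis antigens are germ cell proteins that tumours often re-express. Of 47 genes measured, 19 were above the limit, 40.4%, against 48.3% of all genes. In the top 10% were 12, which is 25.5%, against 10.0% of all genes. None of the 47 lay between 103 and 373. The MAGEA family on the X chromosome stood out in this list, with MAGEA6 at 18881, MAGEA12 at 12710, MAGEA4 at 10572, MAGEA1 at 7692 and MAGEA10 at 1122. MAGEA8 (10.3) and MAGEA11 (1.63) were at background. The MAGEA4 and MAGEA10 probe sets are not of the kinds that share probes, whereas those of MAGEA6, MAGEA12 and MAGEA1 are, and the copies are closely similar. CTAG2 (6372), PRAME (2859) and GAGE1 (1144) were also above. All 5 MAGEB and 3 MAGEC genes measured were at background. Others above the limit, CEP55 (6313), OIP5 (5291), KIF2C (4606), PBK (4580), ATAD2 (4445) and TTK (4333), were all in the top 10%. They are also expressed by dividing cells of other tissues.

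All 30 cell cycle genes were above the limit and 20 were in the top 10%. TYMS (21221), RRM2 (14314), CCNB1 (14049), CDK1 (12930), MCM6 (12114) and MCM7 (11990) were highest, and E2F1 (315) was lowest. MKI67 was at 1964 with 4 of 4 probe sets above. Of 14 reference genes used to normalise assays, 14 were above, from SDHA at 2314 to TUBA1B at 43590. Of 17 pluripotency and stem cell genes only LIN28B, CD44 (9292), KLF4 (1229) and ALCAM (318) were above, and NANOG was at 25.5. In the matrix and protease list 23 of 41 were above the limit, 56.1%, against 48.3% of all genes. PLAUR (10697) and PLAU (6287), the urokinase receptor and urokinase, TIMP1 (10615), CCN2 (6353), CCN1 (5808) and TIMP2 (3956) led it. Basement membrane collagens COL4A1 (22.5) and COL4A2 (26.4) were at background, while the laminin chain LAMC1 was at 3236.

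**Figure D5:**
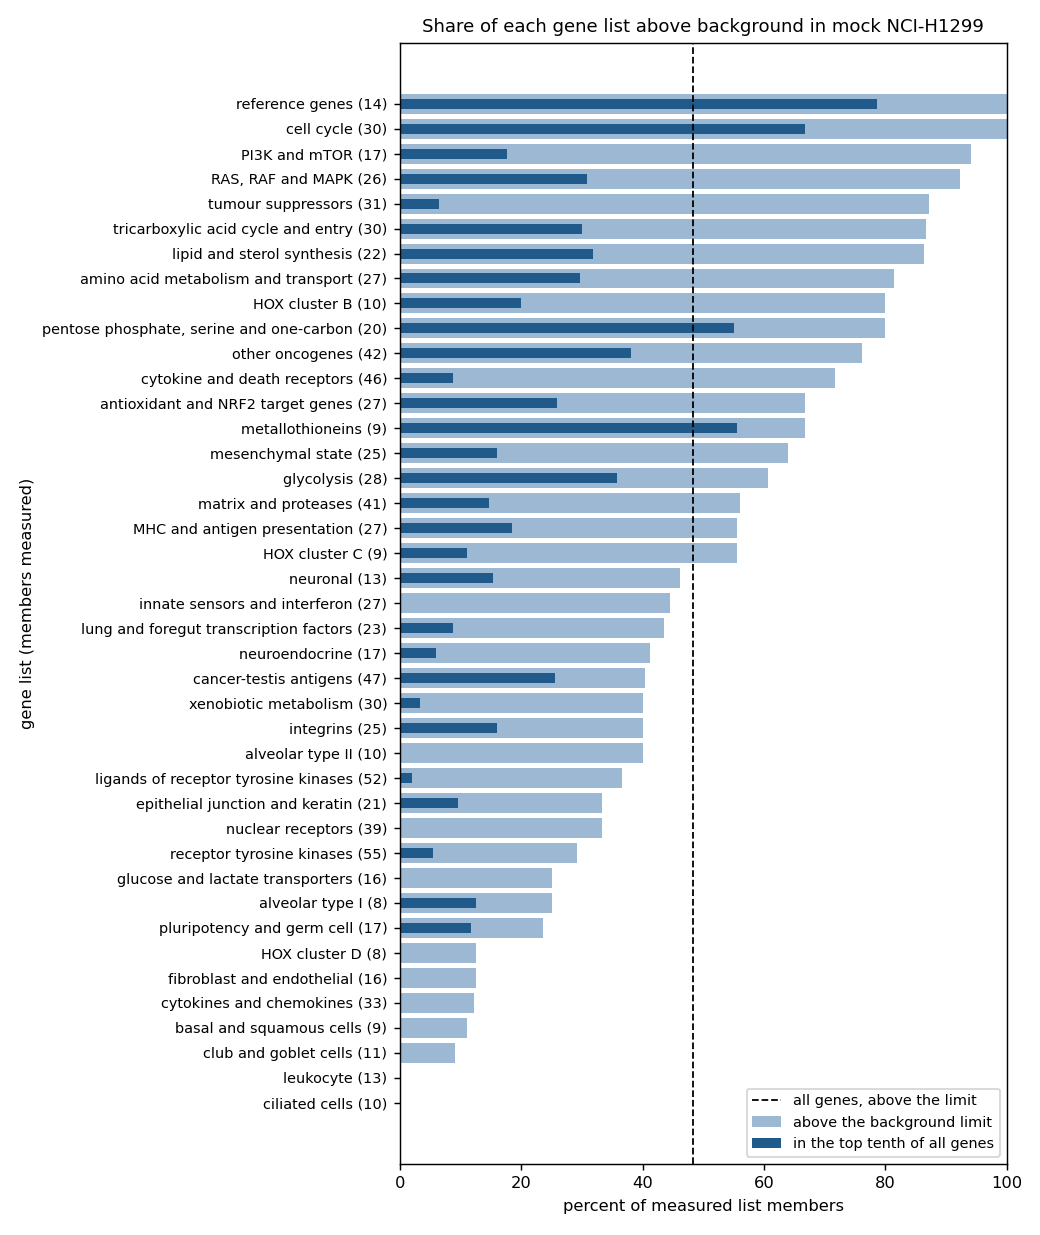
Percent of the measured members of each gene list, HOX cluster A left out, above the background limit (wide bars) and in the top 10% of genes (narrow bars), with the number measured in brackets and the dashed line at 48.3%, the share of all genes above the limit. Reference and cell cycle genes are all above the limit, and leukocyte and ciliated cell markers at 0. Of protein-coding genes 55.5% were above the limit. Lists differ in how many probe sets their genes have.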

How the data were processed

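The mock NCI-H1299 culture was measured on 1 expression array. The authors deposited a linear intensity for each probe set, made with Affymetrix Expression Console per the submitters' processing notes, while its version and algorithm were not given in the sources used here. A 2% trimmed mean over the array came to 500.1, so the deposited values carry a scaling, and no detection calls came with them. Background correction upstream affects the low signals most. Of 54675 probe sets, 62 were controls, 1801 named several genes and 11721 were unnamed, and these were left out. Entrez identifiers tied 41037 of the 41091 probe sets with a single gene to RefSeq. A gene took its highest probe set. The limit was the 95th percentile of 87 reference genes, of which 4 are also in other lists.

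The members and 42 gene lists were chosen with earlier results of these data known. Named were the 10 highest genes, the 20 highest that are not ribosomal, the 6 highest above the limit in each list, 65 single genes and those next to the limit. Other members named were chosen after their values were seen. XIST and Y-linked genes were not named. Of 1079 listed genes, 956 were analysed here. Alternatives were the median or lowest of a gene's probe sets, no _s_at, _x_at and _a_at probe sets, and 3 other limits. Computation used Python 3.11.15, with pandas 2.3.3 and numpy 2.4.6 for tables and matplotlib 3.10.9 for plots.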

Additional observations from a re-analysis of the deposited data

How the results depend on the processing

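No paired analysis was possible because the mock condition has 1 array. The number of arrays limits the precision, and a repeat culture could move any gene near the limit. The genes above the limit numbered 9548, and between 6524 and 11952 under the 6 alternatives, each with its own limit where the probe set rule changed. With the median probe set of each gene 9207 genes were above it.

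Without the probe sets that can bind several transcripts, fewer members were measured in many lists, and those above the limit fell to 4 epithelial, 10 mesenchymal, 4 HOX cluster B, 17 tumour suppressor and 8 glycolytic genes, and 25 of the 65 single genes, of which 44 were then measured. With the limit at the 99th percentile, 626, they were 0 alveolar type II, 3 neuroendocrine, 4 HOX cluster B and 10 receptor tyrosine kinase genes. Olfactory receptor genes gave a limit of 107.6, and 1 leukocyte marker was above it. The median probe set, 70.4, as the limit left 8 alveolar type II genes, 1 leukocyte marker and 25 receptor tyrosine kinases above. The lowest probe set of each gene, an alternative chosen after seeing the data, left 7 mesenchymal, 10 tumour suppressor and 8 receptor tyrosine kinase genes. The difference in median promoter CpG between the highest and lowest class was 15, and 20 with genes in 5 equal classes. Over the 42 lists, counts moved by more than 1.5 times in 2 lists with the median probe set and in 19 with the limit at the 99th percentile. With the limit at the 99th percentile, 6 lung and foregut factors, 10 receptor ligands, 7 drug-metabolising and 13 matrix genes were above, and 33.6% of all genes. With the olfactory receptor limit 23 nuclear receptors and 23 receptor tyrosine kinases were. With the median probe set as the limit 17 integrin genes and 30 receptor ligands were. The lowest probe set left 8 nuclear receptor, 16 tricarboxylic acid cycle, 11 antioxidant and 24 cell cycle genes above, and 33.0% of all genes.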

Other observations

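Genes that do not code for protein were mostly at background. Of 2644 long non-coding RNA genes 252 were above the limit, 9.53%, against 55.5% of 16504 protein-coding genes. These classes were not matched for the number of probe sets per gene. The share above the limit rose with that number over all genes, from 32.2% for 1 probe set to 77.4% for 5 or more. The highest were ZFAS1 (17670), a snoRNA host, with 4 of 4 probe sets above, and NORAD (13605), an RNA that binds PUMILIO proteins, with 2 of 2. MALAT1, a nuclear RNA, was at 5422 with 11 of 12 above, and SNHG32 was at 7908. CRNDE (3628) and MIR100HG (3549), host of microRNAs, were above as well. FTH1P5 (15783) and ANXA2P2 (7947) are pseudogenes of abundant mRNAs, each from 1 probe set that can bind several transcripts. These genes were chosen after their values were seen.

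Of 11721 probe sets without a gene name, 1617 were above the limit, 13.8%, with a median of 32.5. Of 7 mitochondrially encoded genes all were above it, from ND6 at 730.0 to COX2 at 43643.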
